A study of Homo sapiens with 12 samples.

Results

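The transcripts described here are those of the 37 aminoacyl-tRNA synthetase genes, chosen by symbol, 19 for cytosolic enzymes, 16 for mitochondrial enzymes and 2 (GARS and KARS) whose gene makes both forms. All 37 symbols were rows of the count table of 42157 genes, and all 37 were among the 13696 genes with enough reads to be tested. The cells were HL-60, an established line derived from acute myeloid leukemia (AML), treated for 3 h in 4 groups. ML-792+DNR cells received 0.5 µM ML-792 together with 1 µM daunorubicin (DNR), DNR cells received 1 µM DNR alone, ML-792 cells received 0.5 µM ML-792 alone, and DMSO cells received the vehicle, dimethyl sulfoxide. DNR is an anthracycline, a topoisomerase II poison that slots between DNA bases, and ML-792 blocks the E1 enzyme of SUMO, a small modifier that is conjugated to other proteins. Each group had 3 replicates, independent experiments per the study's methods, all made in this one cell line.

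Aminoacyl-tRNA synthetases attach each amino acid to its tRNAs, the step that fixes the genetic code before an amino acid reaches the ribosome. The cytosolic enzymes serve translation of nuclear messages, and 8 of the genes counted here (DARS, EPRS, IARS, KARS, LARS, MARS, QARS and RARS) encode subunits of the multisynthetase complex. The mitochondrial enzymes are encoded in the nucleus, are imported, and charge the tRNAs that the mitochondrial genome encodes. When amino acids run short, uncharged tRNA activates the kinase GCN2, and the transcription factor ATF4 then raises many cytosolic synthetase genes. The E-box CACGTG is the sequence bound by MYC with its partner MAX.

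Polyadenylated RNA was sequenced, and 28647951 to 46451654 reads per library fell in genes. The 37 genes took 0.610% to 0.693% of these reads, from 112 reads (PARS2 in DNR replicate 2) to 33229 reads (NARS in DMSO replicate 1). Transcripts encoded by the mitochondrial genome were more abundant in replicate 1, at 6.37% of reads in ML-792+DNR, 6.27% in DNR, 5.12% in ML-792 and 4.01% in DMSO, than in replicates 2 and 3, where they ranged between 2.49% and 3.48%. Granule and myeloid markers of HL-60 were present, with myeloperoxidase (MPO) at 10090 to 12204 CPM (a counts-per-million value), although the elastase gene ELANE was near 0 (0.324 to 4.03 CPM). Of 15 markers of other cells, 7 (among them CD3E, MS4A1, HBB and EPCAM) were at 0 in all 12 libraries, and the highest, KRT8, reached 3.07 CPM.

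Values below are CPM on library sizes scaled by the trimmed mean of M-values (TMM), and levels of different genes are compared as CPM per kb of the main annotated transcript. In DMSO cells the cytosolic genes had a median of 81.7 CPM per kb and the mitochondrial genes a median of 17.6 CPM per kb. NARS, which charges asparagine, was highest of all at 243 ± 14.5 CPM per kb (SD, n = 3), followed by KARS (lysine) at 177 ± 11.1 CPM per kb and YARS (tyrosine) at 149 ± 21.8 CPM per kb. Among mitochondrial genes IARS2 (isoleucine) was highest at 49.9 ± 2.95 CPM per kb and CARS2 (cysteine) next at 46.4 ± 3.59 CPM per kb. The lowest levels were those of TARSL2, a paralog of the cytosolic threonine enzyme, at 3.54 ± 0.11 CPM per kb and of PARS2 (proline) at 2.56 ± 0.23 CPM per kb. The libraries of neighbours in this order overlapped in 25 of 36 pairs, so that most adjacent ranks could not be told apart, but NARS stood above KARS and KARS above YARS in all 3 DMSO libraries.

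**Figure D1:**
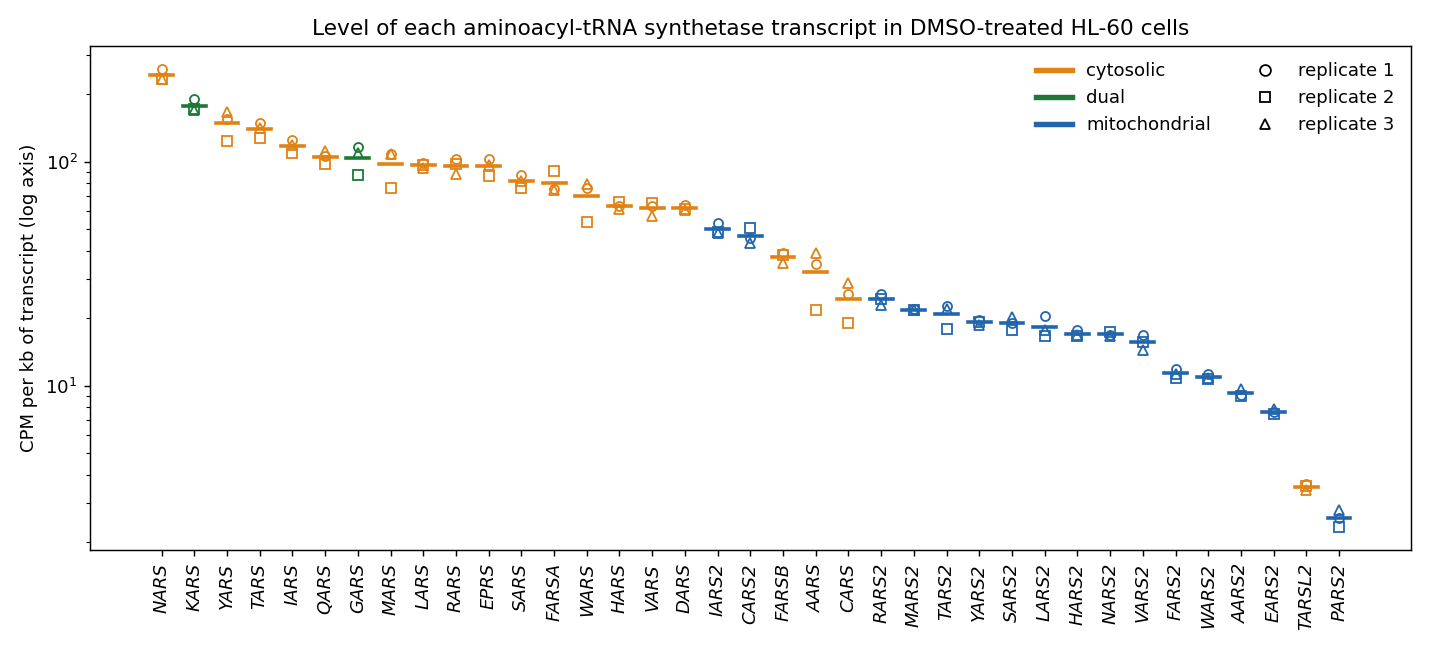
Level of the 37 transcripts in DMSO-treated cells, as CPM per kb of transcript on a log axis, in the order of their means. Points are the 3 replicates and bars the means. Most cytosolic transcripts lie to the left of the mitochondrial ones, NARS is highest at 243 CPM per kb and PARS2 lowest at 2.56 CPM per kb.

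For 13 amino acids the cytosolic and the mitochondrial enzyme have separate genes, and the cytosolic transcript had the higher level per kb in every DMSO library in 12 of these pairs. The ratio of cytosolic to mitochondrial level was largest for NARS and NARS2, at 14.3, and between 2.36 (IARS and IARS2) and 7.76 (YARS and YARS2) in the other pairs of this direction. The exception was cysteine, where CARS reached 24.5 CPM per kb against 46.4 CPM per kb for CARS2, a ratio of 0.527. For CARS, 2 pseudogene copies are annotated (CARS1P1 and CARS1P2), and reads that aligned more than once were not assigned to genes, so that its level may be understated. Pseudogene copies are also annotated for AARS, FARSB, GARS, IARS2, KARS, NARS, RARS, TARS2, WARS and WARS2.

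The question of DNR vs DMSO is what the drug alone did to these transcripts within 3 h. Of the 16 mitochondrial synthetase transcripts 7 fell, TARS2, AARS2, MARS2, HARS2, LARS2, EARS2 and NARS2, whereas 0 of the 19 cytosolic ones passed as lower in this fit by group alone. YARS2, RARS2 and the cytosolic HARS rose. In all, 10 of 37 passed an adjusted p below 0.05 in edgeR's quasi-likelihood test with Benjamini-Hochberg adjustment over the 13696 genes, 3 higher and 7 lower (1 and 7 with scaling by library size alone), whereas 30% of all genes tested passed (14.3% higher and 15.7% lower). No member also reached a 2-fold change, as 6.98% of all genes did. The median log2 change was −0.28 over the 16 mitochondrial genes, −0.07 over the 19 cytosolic genes and 0.01 over all genes tested. With the replicate number added as a block, 15 of 37 members passed, beside 5767 of 13696 genes. The cytosolic AARS, FARSB and EPRS were then among the lower members. Libraries of both groups did not overlap for 9 members that were lower and 4 that were higher in DNR, 13 of 37 beside 46.6% of all genes. In bulk RNA, fewer cells of a kind and less RNA per cell cannot be told apart.

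TARS2 (chr1:150459890-150480078), which charges mitochondrial threonine tRNA, had 34.3, 33.8 and 34.1 CPM in ML-792+DNR, 33.1, 34.0 and 36.3 CPM in DNR, 60.4, 51.7 and 55.1 CPM in ML-792 and 62.1, 48.8 and 59.8 CPM in DMSO. All 6 libraries with DNR lay below all 6 without it. It fell by 0.72 on the log2 scale in DNR vs DMSO (standard error, SE, 0.10, edgeR adjusted p = 0.000117), the largest fall of any member, to 34.5 ± 1.67 CPM in DNR against 56.9 ± 7.11 CPM in DMSO (SD, n = 3 each). AARS2 (alanine, chr6:44266468-44281084) had 25.5, 30.2 and 33.5 CPM in ML-792+DNR, 26.8, 31.8 and 31.2 CPM in DNR, 40.7, 41.1 and 42.7 CPM in ML-792 and 43.6, 43.3 and 46.3 CPM in DMSO. Again no library with DNR reached one without it, and the fall in DNR vs DMSO was by 0.57 on the log2 scale (SE 0.10, edgeR adjusted p = 0.00107). HARS2 (histidine, chr5:140071015-140078890) had 26.6, 32.8 and 33.1 CPM in ML-792+DNR, 26.8, 30.7 and 32.3 CPM in DNR, 42.8, 36.3 and 45.1 CPM in ML-792 and 43.8, 40.9 and 41.3 CPM in DMSO. The lowest library without DNR, 36.3 CPM, was above the highest with DNR, 33.1 CPM. HARS2 fell by 0.49 on the log2 scale in DNR vs DMSO (SE 0.11, edgeR adjusted p = 0.00501).

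The leucine gene LARS2 (chr3:45430053-45596218) had 66.5, 68.5 and 60.7 CPM in ML-792+DNR, 68.4, 71.6 and 68.0 CPM in DNR, 92.2, 80.3 and 79.6 CPM in ML-792 and 97.9, 79.6 and 84.5 CPM in DMSO. It fell by 0.33 in DNR vs DMSO (log2 scale, SE 0.09, edgeR adjusted p = 0.0142), and without DMSO replicate 1, its highest library, by 0.26 (edgeR adjusted p = 0.0601). NARS2 (asparagine, chr11:78146666-78286239) had 34.8, 39.5 and 35.5 CPM in ML-792+DNR, 34.8, 34.9 and 33.5 CPM in DNR, 48.3, 47.9 and 42.5 CPM in ML-792 and 42.1, 43.8 and 41.8 CPM in DMSO, a fall by 0.31 in DNR vs DMSO (SE 0.08, edgeR adjusted p = 0.0120). EARS2, which charges mitochondrial glutamate tRNA and also places glutamate on the glutamine tRNA (chr16:23532075-23569052), had 36.5, 33.8 and 39.5 CPM in ML-792+DNR, 31.5, 32.7 and 31.8 CPM in DNR, 43.6, 41.1 and 39.7 CPM in ML-792 and 39.6, 38.9 and 40.9 CPM in DMSO. Its fall in DNR vs DMSO was by 0.32 (SE 0.08, edgeR adjusted p = 0.00959), and the ML-792+DNR libraries lay between those of DNR and ML-792 without overlap with either group. MARS2, the remaining member that fell, is described with ML-792 further on.

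The mitochondrial share of reads was highest in replicate 1 of every group, so the 7 falls were also computed on replicates 2 and 3 only, a choice made after the data were seen. TARS2 then fell by 0.64 (edgeR adjusted p = 0.00709), AARS2 by 0.52 (edgeR adjusted p = 0.00963) and MARS2 by 0.46 (edgeR adjusted p = 0.00973) on the log2 scale. The log2 changes of the other 4 were −0.40 for HARS2, −0.33 for NARS2, −0.32 for EARS2 and −0.24 for LARS2, with edgeR adjusted p from 0.0529 to 0.124. None of the 3 higher members passed on these libraries.

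**Figure D2:**
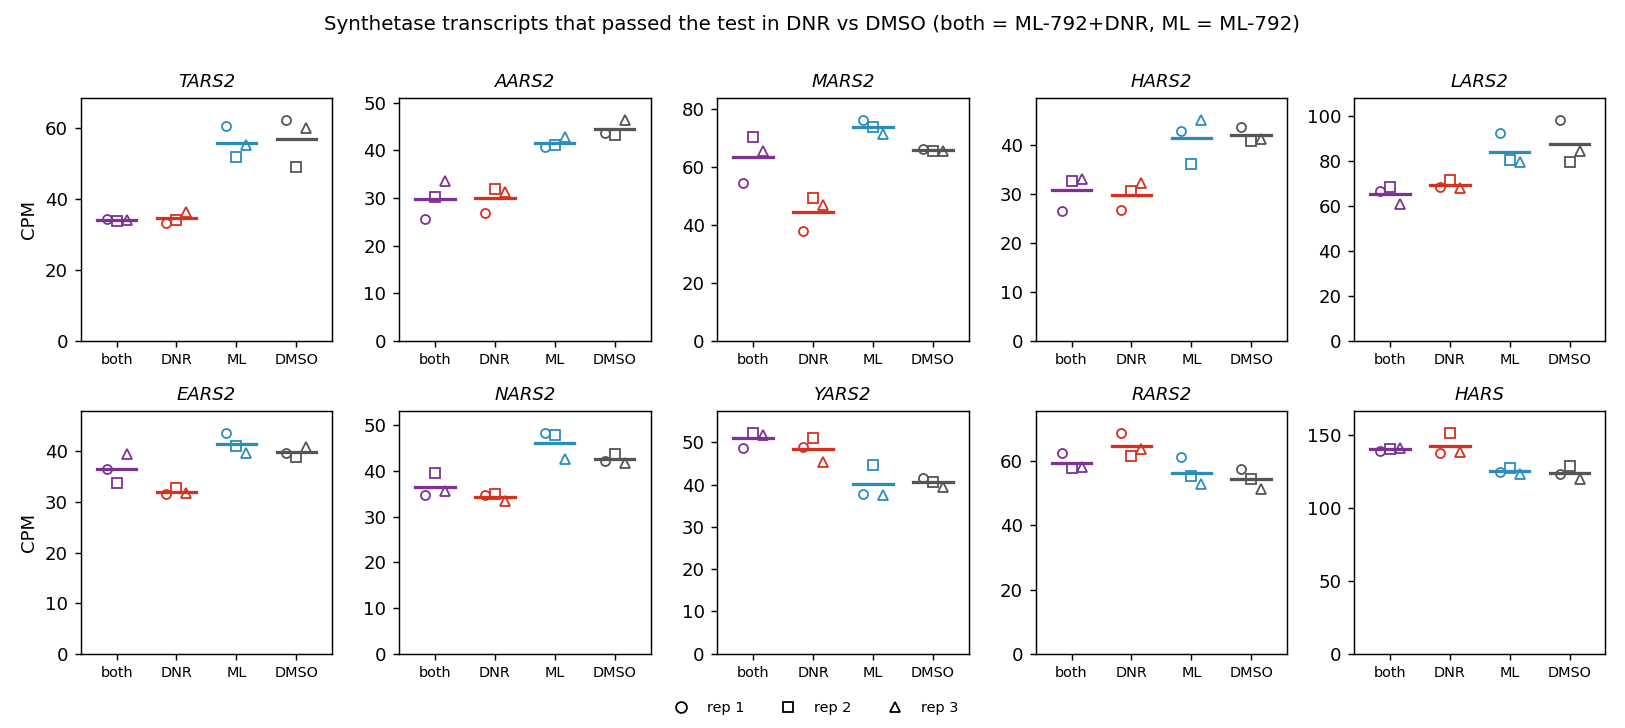
Levels in CPM of the 10 synthetase transcripts that passed the test in DNR vs DMSO, in all 12 libraries, from 0 upward. Points are replicates 1, 2 and 3 and bars the group means; TARS2, AARS2 and HARS2 are lower in all 6 libraries with DNR than in all 6 without, whereas MARS2 in ML-792+DNR lies nearer to DMSO than DNR does.

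Of the members that rose, YARS2 (tyrosine, chr12:32880424-32908831) had 48.8, 52.2 and 51.8 CPM in ML-792+DNR, 49.0, 51.0 and 45.4 CPM in DNR, 37.9, 44.7 and 37.6 CPM in ML-792 and 41.5, 40.5 and 39.5 CPM in DMSO. Every library with DNR was above every library without it, by 0.26 on the log2 scale in DNR vs DMSO (SE 0.08, edgeR adjusted p = 0.0347). RARS2 (arginine, chr6:88223177-88299746) had 62.5, 57.8 and 58.3 CPM in ML-792+DNR, 68.8, 61.6 and 64.0 CPM in DNR, 61.2, 55.3 and 52.9 CPM in ML-792 and 57.7, 54.6 and 51.3 CPM in DMSO, a rise of 0.25 in DNR vs DMSO (SE 0.08, edgeR adjusted p = 0.0355). HARS had 139, 140.3 and 140.7 CPM in ML-792+DNR, 137, 151 and 138 CPM in DNR, 125, 127 and 123 CPM in ML-792 and 123, 128 and 119 CPM in DMSO, a rise of 0.20 in DNR vs DMSO (SE 0.06, edgeR adjusted p = 0.0273). The YARS2 call was lost without DMSO replicate 1, 2 or 3 or DNR replicate 1 or 2 (edgeR adjusted p of 0.0896 to 0.129), the RARS2 call without DMSO replicate 1, 2 or 3 or DNR replicate 1 or 3 (0.0556 to 0.163), and the HARS call without DMSO replicate 1 or 3 or DNR replicate 1 or 2 (0.0505 to 0.141).

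HARS and HARS2 are head-to-head neighbours on chromosome 5, transcribed away from each other, and they passed in opposite directions. The stretch between their main starts (GRCh37, chr5:140070956-140071039, printed on the strand of HARS2, so that HARS reads leftwards out of it) is shown because a pair of genes with 1 shared stretch of 84 bases moved apart. Capitals mark CCGGAAGT, the core recognised by ETS-family factors, on either strand.
HARS and HARS2: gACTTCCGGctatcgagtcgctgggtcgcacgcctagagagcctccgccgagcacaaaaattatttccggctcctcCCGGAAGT
CCGGAAGT lies at each end of the stretch, next to each start. In the RefSeq promoter table on GRCh38.p14 (from 250 bases before to 50 after a start), which held 30 of the 37 members, it occurred on either strand in 8 of 30 members (26.7%) and in 4.95% of 27305 genes. The annotated models of HARS and HARS2 overlap by 108 exonic bases, and HARS also overlaps exons of WDR55 on the opposite strand by 1090 bases. Whether reads were counted by strand could not be learned from the notes or methods, so reads in such overlaps could be lost to either gene.

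Among the other cytosolic and dual genes, log2 changes in DNR vs DMSO lay between −0.58 (AARS) and 0.17 (KARS), and none passed in the fit by group alone. AARS, the cytosolic alanine enzyme (chr16:70285886-70323610), had 67.3, 56.3 and 97.5 CPM in ML-792+DNR, 68.1, 54.9 and 97.6 CPM in DNR, 105, 73.2 and 124 CPM in ML-792 and 120.2, 75.2 and 135 CPM in DMSO. The groups overlapped, because replicate 2 was low and replicate 3 high in every group, but each DNR library was below the DMSO library of the same number. Its log2 change of −0.58 had an SE of 0.27 and an interval from −1.15 to −0.01 (95%, edgeR adjusted p = 0.117). With the replicate number as a block, the edgeR adjusted p of AARS was 0.000198. NARS, the most abundant, had 641, 692 and 635 CPM in DNR against 717, 648 and 649 CPM in DMSO, a log2 change of −0.03 with an interval from −0.22 to 0.15. YARS had 330.1, 287 and 375 CPM in DNR against 379.8, 303 and 406 CPM in DMSO, a log2 change of −0.13 with an interval from −0.43 to 0.17. IARS2, highest of the mitochondrial genes, had 190.1, 182 and 178 CPM in DNR against 188, 171 and 169 CPM in DMSO, a log2 change of 0.06 with an interval from −0.10 to 0.21. None of the 8 genes of the multisynthetase complex passed in the fit by group alone, where 30% of all genes tested did. Their changes lay between −0.19 and 0.17. By structural class, 2 of 18 class I genes rose and 3 fell, and 1 of 18 class II genes rose and 4 fell. That was 27.8% of each class, beside 30% of all genes tested.

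MARS overlaps 355 exonic bases of DDIT3, a stress-induced transcription factor on the opposite strand. DDIT3 had 50.6, 47.2 and 53.3 CPM in DNR against 25.2, 21.5 and 20.5 CPM in DMSO, a rise of 1.17 on the log2 scale (SE 0.12, edgeR adjusted p = 1.92e-05). MARS had 261, 233 and 277 CPM in DNR against 302, 214 and 302 CPM in DMSO, a log2 change of −0.09 (SE 0.13). Other members with exonic overlaps on the opposite strand include AARS (DDX19B), AARS2 (TMEM151B), CARS2 (ING1), KARS (TERF2IP) and YARS (S100PBP), and SARS2 and VARS2 share exons with longer transcripts on their own strand, so their values carry the same uncertainty.

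ML-792+DNR vs ML-792 asks for the effect of DNR in cells given ML-792, and it shares no library with DNR vs DMSO. TARS2, AARS2, HARS2, LARS2, NARS2, FARS2 and the cytosolic TARS fell, while CARS2, YARS2 and the cytosolic QARS rose. That made 10 of 37, 3 higher and 7 lower, beside 33.8% of all genes (16.3% higher and 17.4% lower). TARS2 fell by 0.71 (SE 0.10, edgeR adjusted p = 0.000172), AARS2 by 0.48 (SE 0.10, edgeR adjusted p = 0.00321) and HARS2 by 0.43 (SE 0.11, edgeR adjusted p = 0.0103) on the log2 scale. The falls of LARS2 (by 0.37, SE 0.09, edgeR adjusted p = 0.00801) and NARS2 (by 0.34, SE 0.08, edgeR adjusted p = 0.00676) were also close to those in DNR vs DMSO, which were by 0.33 and 0.31. YARS2 rose by 0.35 (SE 0.08, edgeR adjusted p = 0.00746). The log2 change of EARS2 was −0.18 (SE 0.08, edgeR adjusted p = 0.0962).

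4 members passed here and not in DNR vs DMSO, a difference between the comparisons that the interaction below did not call. CARS2 (chr13:111293759-111365950) had 125, 94.9 and 105 CPM in ML-792+DNR, 122, 94.9 and 91.4 CPM in DNR, 80.2, 86.1 and 84.7 CPM in ML-792 and 84.0, 92.5 and 79.4 CPM in DMSO. Replicate 1 was the highest in both groups with DNR. The rise was 0.37 in ML-792+DNR vs ML-792 (SE 0.12, edgeR adjusted p = 0.0275) and the log2 change 0.27 in DNR vs DMSO (SE 0.12, edgeR adjusted p = 0.106). QARS, the glutamine enzyme of the complex (chr3:49133365-49142563), had 327, 259 and 336 CPM in ML-792+DNR, 302, 256 and 301 CPM in DNR, 239, 244 and 259 CPM in ML-792 and 261, 238 and 273 CPM in DMSO. The rise was 0.31 in ML-792+DNR vs ML-792 (SE 0.10, edgeR adjusted p = 0.0292), with replicate 2 of ML-792+DNR only just above the highest ML-792 library. FARS2 (phenylalanine, chr6:5261277-5829425) had 14.1, 16.4 and 14.7 CPM in ML-792+DNR, 15.9, 14.8 and 17.2 CPM in DNR, 20.1, 17.5 and 18.00 CPM in ML-792 and 19.97, 18.2 and 18.9 CPM in DMSO, a fall by 0.30 in ML-792+DNR vs ML-792 (SE 0.10, edgeR adjusted p = 0.0417). TARS (threonine, chr5:33440802-33468196) had 319, 335 and 321 CPM in ML-792+DNR, 321, 324 and 351 CPM in DNR, 409, 364 and 359 CPM in ML-792 and 398, 341 and 379 CPM in DMSO, a fall by 0.22 in ML-792+DNR vs ML-792 (SE 0.08, edgeR adjusted p = 0.0456).

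Replicate numbers paired the libraries of these 2 groups, and with the replicate number as a block 16 of 37 members passed (6 higher, 10 lower), beside 6390 of 13696 genes. The added members were AARS (−0.45, edgeR adjusted p = 0.00104), EPRS, FARSB, HARS, KARS and WARS2. On replicates 2 and 3 only, 2 members passed, AARS2 and TARS2. The calls of CARS2, FARS2, QARS and TARS were each also lost without at least 4 of the 12 libraries in turn, among them ML-792 replicates 1 and 2 and ML-792+DNR replicates 1 and 3.

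**Figure D3:**
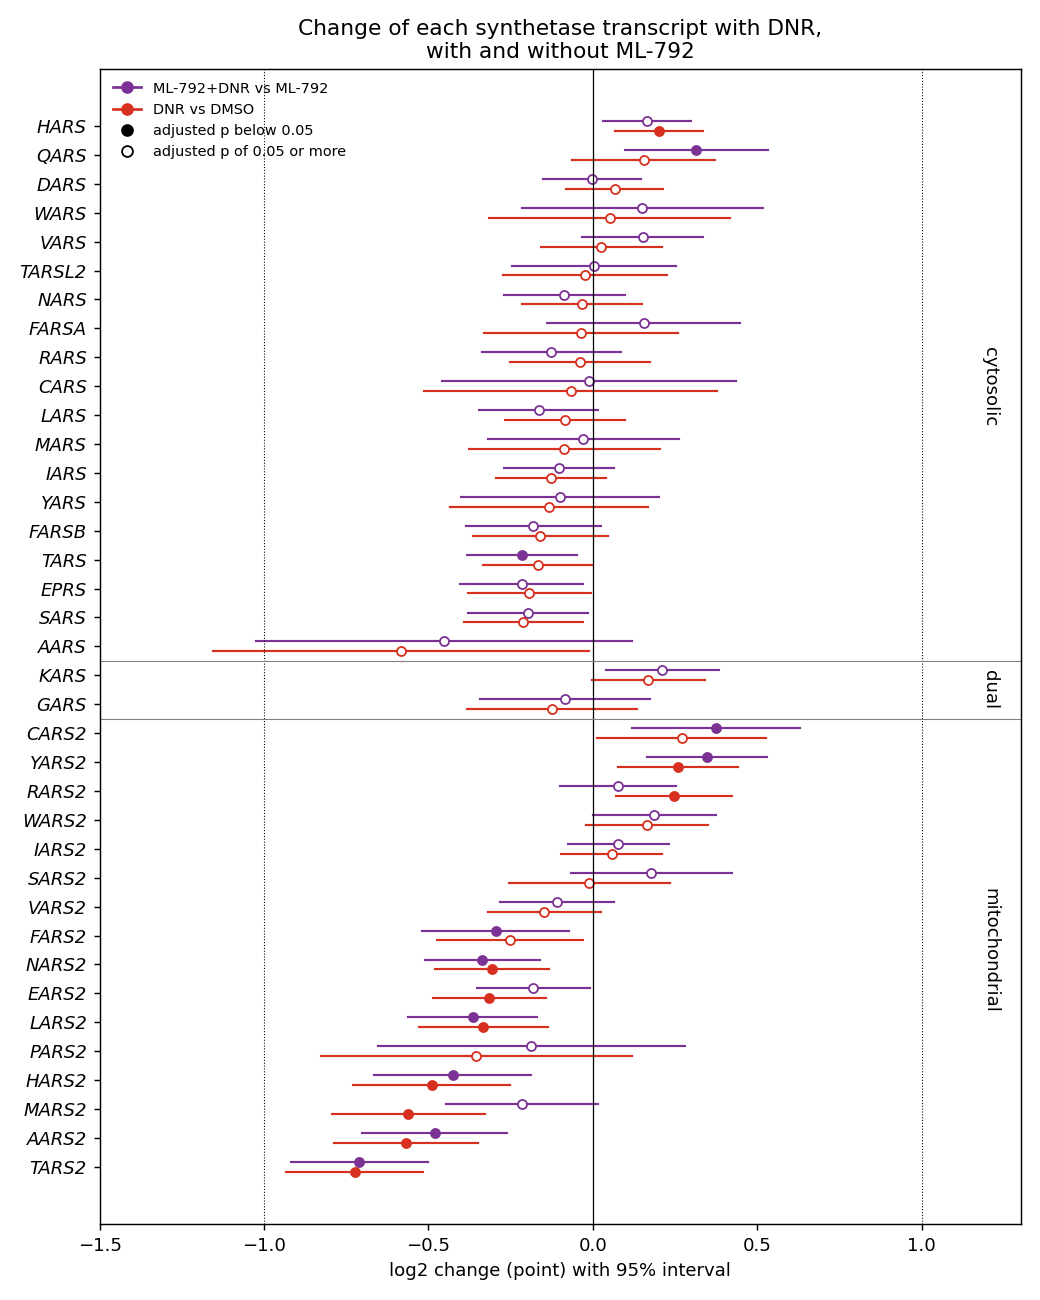
Log2 change of each of the 37 transcripts with DNR in the presence of ML-792 (ML-792+DNR vs ML-792, upper of each pair) and in its absence (DNR vs DMSO, lower of each pair). Points are estimates, lines 95% intervals, filled points an adjusted p below 0.05 and dotted lines a 2-fold change; TARS2 and AARS2 fell in both comparisons and no point reaches a dotted line.

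Set side by side, the log2 changes of DNR vs DMSO and of ML-792+DNR vs ML-792 had Pearson r = 0.923 and Spearman rho = 0.939 across the 37 members, and 0.864 and 0.822 across all 13696 genes. These are correlations across genes measured in the same libraries and are given as a description. Of the members that passed in either comparison, 14 in all, 5 were lower in both (TARS2, AARS2, HARS2, LARS2 and NARS2) and 1 was higher in both (YARS2). Of the 5527 genes tested that passed in either comparison, 1697 were lower in both and 1509 higher in both. HARS rose in DNR vs DMSO and had a log2 change of 0.16 in ML-792+DNR vs ML-792 (edgeR adjusted p = 0.0567), and RARS2 had 0.25 and 0.08.

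In ML-792+DNR vs DMSO, which sets the combination against the vehicle and shares libraries with the comparisons above, YARS2, CARS2, KARS and HARS were higher and TARS2, AARS2, HARS2, LARS2 and FARS2 lower. These were 9 of 37 members, 4 higher and 5 lower (2 and 8 with scaling by library size alone), beside 35.4% of all genes (17% higher and 18.4% lower). TARS2 fell by 0.74 (SE 0.10, edgeR adjusted p = 0.000110) on the log2 scale, AARS2 by 0.58 (SE 0.10, edgeR adjusted p = 0.000899) and LARS2 by 0.42 (SE 0.09, edgeR adjusted p = 0.00325). KARS, which makes both the cytosolic and the mitochondrial lysine enzyme (chr16:75661372-75682541), had 439, 417 and 392 CPM in ML-792+DNR, 408, 411 and 371 CPM in DNR, 380.4, 369 and 329 CPM in ML-792 and 378, 343 and 338 CPM in DMSO. Its rise was 0.24 in ML-792+DNR vs DMSO (SE 0.08, edgeR adjusted p = 0.0343), and ML-792+DNR was the higher group in 3 of 3 replicates. With the replicate number as a block, 16 of 37 members passed (6 higher, 10 lower), beside 6708 of 13696 genes, and on replicates 2 and 3 only 3 lower members and 0 higher ones did.

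ML-792 vs DMSO, the effect of blocking SUMO conjugation alone, gave 0 of 37 members, beside 0.241% of all genes. No member had an unadjusted p below 0.05, and DESeq2 and the fit with the replicate block also called 0. The log2 changes lay between −0.15 (SARS2) and 0.16 (MARS2), and the 95% intervals between −0.70 (AARS) and 0.62 (PARS2), so that a 2-fold change in either direction was outside the interval of every member. Libraries of both groups did not overlap for 2 members, AARS2 (40.7, 41.1 and 42.7 CPM in ML-792 against 43.6, 43.3 and 46.3 CPM in DMSO) and MARS2, beside 10.5% of all genes.

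ML-792+DNR vs DNR asks what blocking SUMO conjugation changed in DNR-treated cells, and 1 of 37 members passed, MARS2, which was higher, beside 0.745% of all genes (0.256% higher). MARS2, the mitochondrial methionine enzyme, is a gene of 1 exon (chr2:198570093-198573119). It had 54.4, 70.5 and 65.7 CPM in ML-792+DNR, 37.8, 49.3 and 46.9 CPM in DNR, 76.1, 73.9 and 71.4 CPM in ML-792 and 66.4, 65.6 and 65.6 CPM in DMSO. The DNR group stood below the other 3 without overlap, and the ML-792+DNR group overlapped with DMSO. In DNR vs DMSO it fell by 0.56 on the log2 scale (SE 0.11, edgeR adjusted p = 0.00167), and in ML-792+DNR vs DNR it rose by 0.51 (SE 0.11, edgeR adjusted p = 0.0487), with ML-792+DNR higher in 3 of 3 replicates. In ML-792+DNR vs ML-792 its log2 change was −0.22 (SE 0.11, edgeR adjusted p = 0.136).

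The ML-792+DNR vs DNR call of MARS2 lay at the threshold. It was kept when ML-792 replicate 3 or ML-792+DNR replicate 1 was left out and lost for each of the other 10 libraries, with log2 changes between 0.40 and 0.61 and edgeR adjusted p up to 0.151. It passed with the replicate block (edgeR adjusted p = 0.0121) and in DESeq2 (adjusted p = 0.00188), and not on replicates 2 and 3 only (0.51, edgeR adjusted p = 0.138) or in a fit of the 2 groups alone (edgeR adjusted p = 0.136). For the other 36 members, log2 changes lay between −0.12 and 0.33.

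The stretches around the starts of MARS2 (chr2:198570022-198570102, bases −71 to 10 from the start) and EARS2 (chr16:23568681-23568746, minus strand, bases −50 to 16 from the more upstream of its starts) are shown because both transcripts fell in DNR vs DMSO and both hold the E-box CACGTG, in capitals.
MARS2: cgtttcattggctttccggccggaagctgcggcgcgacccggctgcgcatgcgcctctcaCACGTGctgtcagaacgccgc
EARS2: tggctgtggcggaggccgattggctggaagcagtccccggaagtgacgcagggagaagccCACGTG
CACGTG, which reads the same on both strands, occurred in the windows of 4 of 30 members (CARS2, EARS2, IARS and MARS2, 13.3%) and in 8.77% of all 27305 genes.

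MYC, a transcription factor that binds this E-box, moved as follows in the same libraries. It had 251, 584 and 344 CPM in ML-792+DNR, 81.5, 146 and 117 CPM in DNR, 1045, 1507 and 1296 CPM in ML-792 and 519.8, 725 and 584 CPM in DMSO. MYC fell by 2.41 on the log2 scale in DNR vs DMSO (SE 0.28, edgeR adjusted p = 4.16e-05) and rose by 1.78 in ML-792+DNR vs DNR (SE 0.28, edgeR adjusted p = 0.0127). In ML-792 vs DMSO its log2 change was 1.07 (SE 0.27, edgeR adjusted p = 0.195). Replicate 1 was the lowest in all 4 groups for MYC, whereas for MARS2 it was the lowest in ML-792+DNR and DNR and the highest in ML-792 and DMSO. CARS2 and IARS, which also hold the E-box, had log2 changes of 0.27 and −0.13 in DNR vs DMSO. The part of MYC in the MARS2 values was not tested.

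**Figure D4:**
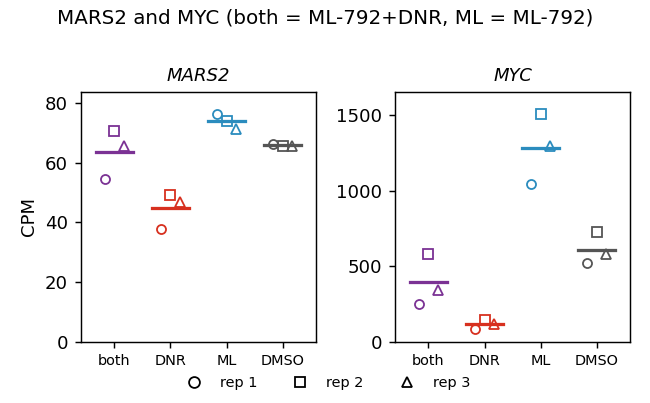
Levels in CPM of MARS2 (left) and MYC (right) in the 12 libraries, each axis from 0. Points are replicates and bars group means. Both transcripts are lowest in DNR, and both overlap with DMSO in ML-792+DNR. MYC has 251 to 584 CPM in ML-792+DNR against 520 to 725 CPM in DMSO, and only its replicate 2 of ML-792+DNR lies in the DMSO range.

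The interaction of DNR and ML-792 tests whether the DNR change differed with and without ML-792. 0 of 37 members passed, beside 0% of all genes, and DESeq2 and the fit with the replicate block called 0 members too. At an unadjusted p below 0.05 there was 1 member, MARS2, whose DNR change was less negative by 0.35 on the log2 scale with ML-792 (95% interval 0.02 to 0.67, edgeR adjusted p = 0.999). The SE of this difference had a median of 0.13 over the 37 members.

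A pattern tied to the replicate rather than to the drugs was seen among the cytosolic genes, and the F test of replicate number in a fit with group was added after it was noticed. It passed for 10 of 37 members, 9 of 21 cytosolic and dual genes and 1 of 16 mitochondrial genes, beside 18.9% of all genes. Of these 10, replicate 2 was below the mean of replicates 1 and 3 for 8 and above it for FARSB and KARS. Replicate 2 was the lowest of the 3 in all 4 groups for 7 members (AARS, CARS, WARS, PARS2, YARS, MARS and GARS), 18.9% of members and 7.91% of all genes. Relative to the mean of replicates 1 and 3, replicate 2 held 64.9% of AARS, 70.3% of CARS, 73.6% of WARS, 73.4% of PARS2, 79.3% of YARS, 80.01% of MARS and 82.1% of GARS. CARS (cysteine, chr11:3022152-3078843) had 61.3, 46.7 and 74.0 CPM in ML-792+DNR, 64.7, 48.8 and 78.4 CPM in DNR, 61.5, 49.1 and 72.7 CPM in ML-792 and 70.2, 52.0 and 78.7 CPM in DMSO. WARS (tryptophan) had 223, 157 and 219 CPM in ML-792+DNR, 206, 156 and 212 CPM in DNR, 196, 154 and 188 CPM in ML-792 and 201, 142 and 211 CPM in DMSO. For CARS and WARS the spread between replicates was thus larger than the differences between treatments.

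Some enzymes of amino acid synthesis that ATF4 is known to raise were also lowest in replicate 2, and others were not. PSAT1 (serine synthesis) had 315, 234 and 334 CPM in ML-792+DNR, 277, 205 and 309 CPM in DNR, 285, 218 and 322 CPM in ML-792 and 275, 203 and 311 CPM in DMSO. Of 24 tested ATF4 targets 19 passed the replicate test, which has no direction: 16 were lower in replicate 2 than in the mean of replicates 1 and 3, and 3 were higher (PYCR1 and ALDH18A1 of proline synthesis and the pseudokinase TRIB3, at 125%, 109% and 121%). 10 were lowest in replicate 2 of all 4 groups, among them PSAT1, PHGDH and ASNS, and 1, PYCR1, was highest there in all 4. ATF4 itself had 330, 335 and 403 CPM in ML-792+DNR, 336, 328 and 401 CPM in DNR, 375, 356 and 513 CPM in ML-792 and 391, 393 and 461 CPM in DMSO, highest in replicate 3 of every group. The state of the cultures was not measured in these files, and its part in the pattern was not tested.

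**Figure D5:**
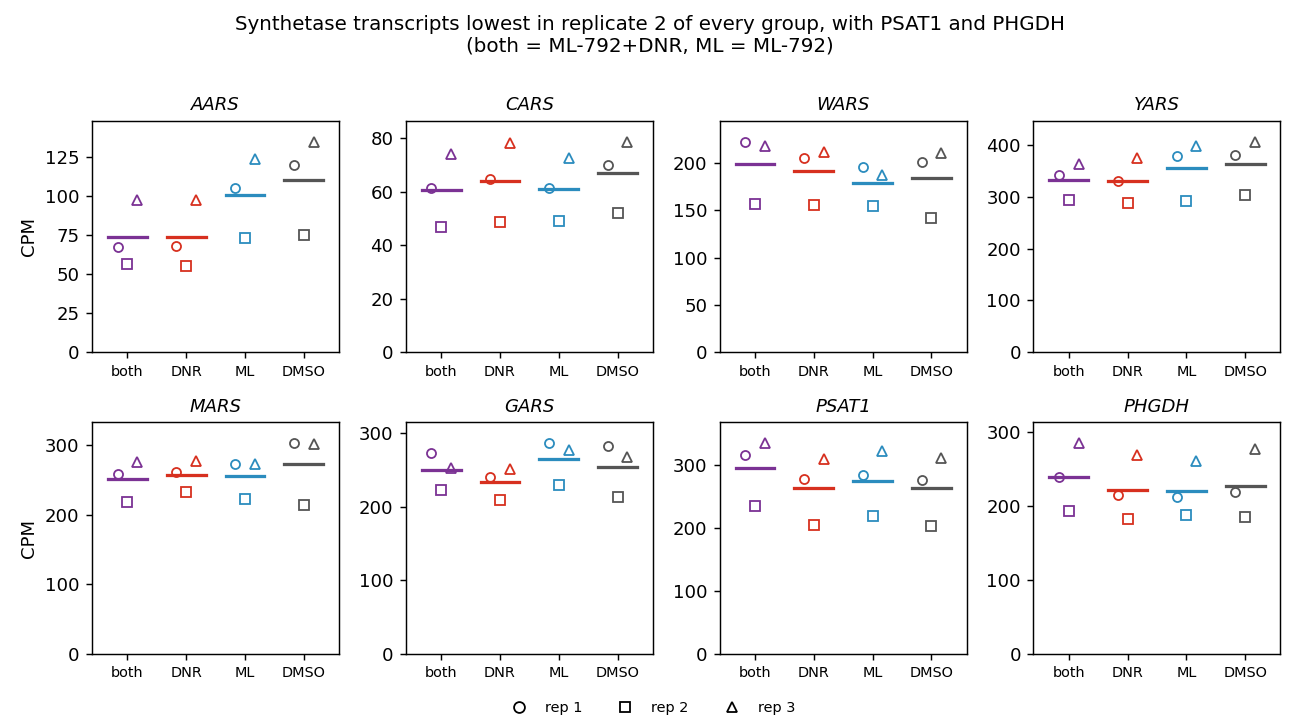
Levels in CPM of 6 of the 7 synthetase transcripts that were lowest in replicate 2 of every group (PARS2, at 3.5 to 7.6 CPM, is left out), with PSAT1 and PHGDH, in the 12 libraries. Squares (replicate 2) lie below circles and triangles (replicates 1 and 3) in each group, and the axes start at 0.

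The promoter stretches of AARS, CARS, MARS and IARS are shown because they hold the C/EBP-ATF response element, TGATGNAA, to which ATF4 binds; capitals mark it as it reads on the other strand, TTGCATCA. They lie on GRCh37 at chr16:70323568-70323656 (minus strand, bases −247 to −159 from the RefSeq start of AARS), chr11:3078644-3078715 (minus strand, −62 to 10 from that of CARS), chr12:57881787-57881860 (plus strand, −64 to 10 from that of MARS) and chr9:95055970-95056052 (minus strand, −73 to 10 from that of IARS).
AARS: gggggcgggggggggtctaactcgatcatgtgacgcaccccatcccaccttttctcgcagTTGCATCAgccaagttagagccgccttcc
CARS: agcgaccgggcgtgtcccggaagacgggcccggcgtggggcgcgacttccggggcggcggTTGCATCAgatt
MARS: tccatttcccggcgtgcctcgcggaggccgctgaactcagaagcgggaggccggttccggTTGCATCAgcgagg
IARS: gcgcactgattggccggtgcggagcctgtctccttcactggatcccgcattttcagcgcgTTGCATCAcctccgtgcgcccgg
In CARS and MARS the element spans the start itself. TGATGNAA occurred on either strand in the windows of 8 of 30 members (26.7%: AARS, CARS, GARS, IARS, MARS, NARS, TARS and YARS2) and in 4.46% of all 27305 genes. It was in 6 of 14 cytosolic, 1 of 2 dual and 1 of 14 mitochondrial genes. Of the 8, AARS, CARS, GARS and MARS were among the transcripts lowest in replicate 2 of every group, and IARS, NARS, TARS and YARS2 were not. IARS was lowest in replicate 2 of 3 groups, with 514, 483 and 511 CPM in ML-792+DNR, 483, 461 and 510.4 CPM in DNR and 562, 492 and 533 CPM in DMSO, but in ML-792 it had 586, 520 and 513 CPM, lowest in replicate 3. AARS2, DARS, LARS, TARSL2, VARS, VARS2 and YARS were not in the table.

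Other parts of the charging pathway were counted from lists chosen with earlier results of these data known. A list of partners of the synthetases in charging also held genes of other steps, such as SECISBP2. Of its 13 tested genes 3 rose in DNR vs DMSO and 0 fell, 23.1% beside the 30% of all genes that passed. SEPSECS, which makes selenocysteine on its tRNA, had 28.7 ± 3.38 CPM in DNR against 19.4 ± 1.14 CPM in DMSO, a rise of 0.56 on the log2 scale (SE 0.12, edgeR adjusted p = 0.00322). GATC, a subunit of the mitochondrial amidotransferase that turns the glutamate placed by EARS2 into glutamine, rose by 0.28 (SE 0.10, edgeR adjusted p = 0.0449), and SECISBP2, which binds selenoprotein messages, by 0.27 (SE 0.07, edgeR adjusted p = 0.0152). The scaffolds AIMP1 and AIMP2 of the multisynthetase complex had log2 changes of 0.15 and 0.10 in DNR vs DMSO, and AIMP2 was higher by 0.35 in ML-792+DNR vs DMSO (SE 0.11, edgeR adjusted p = 0.0203).

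Of 22 genes of RNA polymerase III transcription, which makes tRNA, 3 rose and 4 fell in DNR vs DMSO. Of these, the polymerase subunit POLR3B fell by 0.55 on the log2 scale, GTF3C2 of the factor TFIIIC fell by 0.44, and MAF1, a repressor of the polymerase, rose by 0.42. Of 22 tRNA processing and export genes 2 rose and 6 fell, among them KIAA0391, the nuclease of mitochondrial RNase P (by 0.44 on the log2 scale, to 36.6 ± 1.43 CPM in DNR against 49.6 ± 2.76 CPM in DMSO, edgeR adjusted p = 0.00125). Of 10 genes listed with the translation elongation factors, GFM2, of mitochondria, rose by 0.45 and EEF1D by 0.41, and 0 fell. The shares passing were 31.8%, 36.4% and 20% in the polymerase III, tRNA processing and elongation factor lists, beside 30% of all genes, and their median log2 changes were −0.01, 0.06 and 0.11, beside 0.01 over all genes.

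Of 24 tested ATF4 targets 4 rose and 5 fell in DNR vs DMSO (37.5%, beside 30% of all genes), with a median of 0.04. ATF3 rose by 4.12, DDIT3 by 1.17 and ATF5 by 0.88 on the log2 scale, all transcription factors of stress responses, whereas VLDLR, a lipoprotein receptor, fell by 1.34. ATF4 had a log2 change of −0.22 (SE 0.14, edgeR adjusted p = 0.239), and ASNS and PSAT1 of amino acid synthesis had 0.08 and 0.00. Of 14 genes for eIF2 kinases, eIF2B and phosphatase subunits, 2 rose and 1 fell (21.4%, beside 30% of all genes), with a median of −0.02. PPP1R15A, which guides a phosphatase to eIF2, rose by 2.49 and EIF2B2 by 0.52, and IMPACT, an inhibitor of GCN2 activation, fell by 0.26. In ML-792+DNR vs DNR, DDIT3 (by 0.79) and PPP1R15A (by 0.89) fell while no synthetase did. Of 12 amino acid transporters, 33.3% passed: 2 rose (SLC36A1 by 0.52 and SLC38A2 by 0.36) and 2 fell (SLC1A4 by 0.41 and SLC7A1 by 0.33) in DNR vs DMSO. Of 12 interferon-inducible genes, a class to which WARS belongs in other settings, 5 rose and 0 fell (41.7%, beside 30% of all genes), including IRF7 by 3.21 and IFIH1 by 1.89, while WARS had a log2 change of 0.05 (95% interval −0.32 to 0.42).

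Gene length was also set beside the changes, since DNR acts on DNA. The genomic span of the members ranged from 3.03 kb (MARS2) to 568 kb (FARS2). Across the 37 members, span and the log2 change in DNR vs DMSO had r = 0.20 and rho = 0.13 across genes. The sign differed by compartment, with r = 0.39 and rho = 0.45 over the 16 mitochondrial genes and r = −0.31 and rho = −0.31 over the 19 cytosolic genes. Across the 12929 genes with a known span r was −0.13 and rho −0.20. In ML-792+DNR vs ML-792, r was 0.13 and rho 0.14 over the mitochondrial genes, and −0.51 and −0.41 over the cytosolic genes. There r was −0.04 and rho −0.04 over the 37 members, and −0.22 and −0.30 over the 12929 genes. The falls in DNR vs DMSO included the shortest member, MARS2, as well as LARS2, which spans 166 kb.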

How the data were processed

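RNA of 12 HL-60 cultures was sequenced as single-end, strand-marking polyadenylated libraries. Per the labels and methods, the authors aligned to hg19 (GRCh37) using TopHat2 (version 2.1.1, on Bowtie2 version 2.3.5.1) and obtained whole-number counts per gene from HTSeq (version 0.11.1); these deposited counts were used. Cufflinks (version 2.2.1), Picard and DESeq2 appear in the submitters' notes. A normalized table and a table of the authors' own fold changes and p-values were not used. The 5 counter lines of HTSeq were dropped; reads aligned more than once made up 26.6% to 29.2% of records. The sources used here name no strand option for the counting.

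Counts were modelled in edgeR 4.0.16 (R 4.3.3): group as the only term over 12 libraries, TMM factors, filterByExpr (minimum count 10, minimum total 15), quasi-likelihood F tests and adjustment over 13696 genes. Alternatives were DESeq2 1.42.0, size factors by median of ratios, scaling by library size, testing unfiltered genes or those averaging 1 CPM or more, adding the replicate number as a block, fitting only the groups compared and omitting each library in turn; replicates 2 and 3 only and the F test of replicate were added after seeing the data. The code was tested on simulated data. Replicates of a group differed by more than sampling noise (16.9 to 84.4 chi-square units per gene, where sampling alone gives about 1).

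Same-numbered replicates were called paired where their deviations correlated across genes by over 0.1 in every pair. This held for ML-792 against DMSO (lowest r 0.285) and for ML-792+DNR against DMSO (0.124), against DNR (0.353) and against ML-792 (0.148). Counts and p-values come from the fit by group alone, without pairing, in these comparisons too, unless another fit is named. Per-library values are given for members passing in DNR vs DMSO or ML-792+DNR vs ML-792 (up to 8 in each direction), up to 4 more from each other comparison and the 2 most abundant cytosolic and mitochondrial members, and of each other list up to 4 passing genes with the largest changes, some of which are not reported here; AARS, CARS, MARS, WARS, IARS, PSAT1, ASNS and PHGDH were picked after their values were seen. Members and lists were chosen with earlier results of these data known. Gene coordinates are GENCODE v44 lifted to GRCh37, and promoters RefSeq (GRCh38.p14), located on GRCh37. Each p-value rests on the spread of these cultures alone.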

Additional observations from a re-analysis of the deposited data

How the results depend on the processing

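The 30 member changes called in a comparison kept their direction in all 600 refits and their call in 495, and 8 of them passed in every refit (TARS2 and AARS2 in DNR vs DMSO, ML-792+DNR vs DMSO and ML-792+DNR vs ML-792, MARS2 in DNR vs DMSO and LARS2 in ML-792+DNR vs DMSO). In DNR vs DMSO, the 3 higher members became 1 with library size only, 0 with no count filter and 0 on replicates 2 and 3 only, and ranged from 0 to 3 as each library was left out. The 7 lower members became 3 on replicates 2 and 3 only, and ranged from 6 to 10 with a library left out. In ML-792+DNR vs DMSO, the 4 higher members became 2 with library size only, 2 with no count filter and 0 on replicates 2 and 3 only (1 to 4 with a library left out), and the 5 lower ones 8 with library size only, 10 with the replicate block and 3 on replicates 2 and 3 only (4 to 7 with a library left out). In ML-792+DNR vs DNR, the 1 higher member became 0 with library size only, 0 in the groups compared only and 0 on replicates 2 and 3 only (0 to 1 with a library left out). In ML-792+DNR vs ML-792, the 3 higher members became 5 with a mean of at least 1 CPM, 6 with the replicate block and 0 on replicates 2 and 3 only (1 to 3 with a library left out), and the 7 lower ones 2 on replicates 2 and 3 only. The causes were not tested. The setting with replicates 2 and 3 only left out replicate 1 and also had fewer libraries per group, which were not told apart.

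In DNR vs DMSO and the interaction the replicate numbers were not taken as pairs, since the lowest r of same-numbered libraries was 0.0852 and 0.0722. In DNR vs DMSO every same-numbered r was still above every r of differently numbered libraries, which reached at most 0.00401. With the replicate block 15 members passed in DNR vs DMSO (4 higher, 11 lower), beside 5767 of 13696 genes. The block added 3 cytosolic genes as lower, AARS (−0.58, edgeR adjusted p = 0.000198), FARSB (−0.16, 0.0219) and EPRS (−0.19, 0.0329), along with FARS2 and the higher KARS. In the interaction 0 members passed, beside 1 of 13696 genes. The replicate block changed no other call in ML-792 vs DMSO and ML-792+DNR vs DNR. PARS2, with 112 to 280 reads per library, had one of the widest intervals (−0.83 to 0.12 in DNR vs DMSO). At this depth and replication, a change anywhere in that interval was compatible with its values.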
